A study of Homo sapiens with 6 samples.

Results

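The glutathione synthesis and NRF2 antioxidant genes examined here are GCLC, GCLM, GSS, GSR, NQO1, HMOX1, TXNRD1, SRXN1 and ME1. These 9 genes were taken by symbol from a table of 35750 genes, and all 9 were found. The cells were T98G, an established human glioblastoma line grown in medium with 10% serum, and RNA was captured with oligo(dT) and sequenced. The 2 groups were shControl, with a control hairpin, and shSLC1A5, with a short hairpin RNA that the labels describe as an SLC1A5 knockdown, with 3 libraries each. The series asks how depletion of SLC1A5, a sodium-dependent carrier that brings glutamine into the cell, changes gene expression. Whether separate cultures, clones or hairpins stand behind the 3 libraries is not stated in the labels. The p-values therefore reflect differences among these libraries only, and those may be technical.

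Glutathione is a tripeptide of glutamate, cysteine and glycine that keeps cell thiols reduced. Glutamate-cysteine ligase, a catalytic subunit (GCLC) paired with a modifier subunit (GCLM), joins glutamate to cysteine, and glutathione synthetase (GSS) adds glycine. Many genes of this system are targets of NRF2, a transcription factor encoded by NFE2L2 that KEAP1 and the ubiquitin ligase scaffold CUL3 mark for degradation. Freed from KEAP1, NRF2 pairs with a small MAF protein on antioxidant response elements, which the repressor BACH1 can also occupy.

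To show what the genes share in sequence, RefSeq promoter windows (GRCh38.p14), from 250 bases before to 50 after the start, were searched on both strands for TGACNNNGC, the core of the antioxidant response element. Windows were matched by symbol for 6 of the 9 genes (GCLC, GCLM, NQO1, TXNRD1, SRXN1 and ME1). The letters were present in 3 of these 6, against 13.3% of 35116 windows of that length. Positions below count from the start, with negative numbers before it. In GCLM the match began at -34 on the opposite strand, as TGACTAAGC, and was the only one of the 6 windows to hold the longer form, with an A after these letters, found in 3.18% of all windows. TXNRD1 held TGACTTCGC from -99 on the gene's own strand and TGACGGAGC from -8 on the opposite strand. ME1 held TGACTCAGC from -137, which contains the AP-1 letters TGACTCA (present in 4.95% of windows), and TGACGGTGC from 12 bases after the start on the opposite strand. GCLC, NQO1 and SRXN1 held no match in this window. The GCLC window lies inside the span of the counted gene (53497341 to 53616970), which extends further upstream than the start used here. A match is a description of letters only. The 250 bases before the start are printed for the ligase subunits, whose transcripts moved in opposite directions, and for TXNRD1 and ME1, the other genes with a match, with matches in capitals; the second TXNRD1 match ends 1 base past the printed stretch.
GCLC, chr6:53545102-53545351, minus strand: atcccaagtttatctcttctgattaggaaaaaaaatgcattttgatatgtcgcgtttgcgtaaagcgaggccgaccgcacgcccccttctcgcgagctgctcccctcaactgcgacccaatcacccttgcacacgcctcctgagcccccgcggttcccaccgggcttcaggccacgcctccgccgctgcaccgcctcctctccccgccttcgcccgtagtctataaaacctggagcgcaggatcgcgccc
GCLM, chr1:93909431-93909680, minus strand: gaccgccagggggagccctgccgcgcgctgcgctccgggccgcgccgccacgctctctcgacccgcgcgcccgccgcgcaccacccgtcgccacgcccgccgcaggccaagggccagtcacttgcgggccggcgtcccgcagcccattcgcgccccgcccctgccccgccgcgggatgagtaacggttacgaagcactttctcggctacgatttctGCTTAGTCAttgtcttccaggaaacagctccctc
TXNRD1, chr12:104215529-104215778, plus strand: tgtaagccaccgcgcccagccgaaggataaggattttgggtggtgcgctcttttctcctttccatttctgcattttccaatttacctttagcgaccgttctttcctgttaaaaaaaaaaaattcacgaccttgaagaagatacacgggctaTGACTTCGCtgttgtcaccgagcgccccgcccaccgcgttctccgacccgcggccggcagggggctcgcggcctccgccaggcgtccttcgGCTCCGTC
ME1, chr6:83431052-83431301, minus strand: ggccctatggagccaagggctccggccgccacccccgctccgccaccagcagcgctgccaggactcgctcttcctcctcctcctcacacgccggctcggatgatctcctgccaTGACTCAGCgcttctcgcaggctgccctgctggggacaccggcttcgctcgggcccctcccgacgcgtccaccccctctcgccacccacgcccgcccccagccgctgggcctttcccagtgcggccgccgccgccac

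The libraries held 59327548 to 70802167 counts. SLC1A5 itself differed little: it was lower in shSLC1A5 by 9.02% (95% confidence interval 6.44% to 11.5%; log2 fold change -0.14, or -0.35 with offsets that correct each library for the GC content and length of transcripts, called GC-length offsets below). Given this, shSLC1A5 below means only the libraries labelled so, and all directions compare them with the shControl libraries. Among markers set for a glioma line, VIM, CD44 and EGFR were abundant, whereas GFAP averaged 0.0204 FPKM in shControl and 0.0193 in shSLC1A5. In the same order, OLIG2 averaged 0.741 and 0.729 FPKM and NES 0.0959 and 0.185. PDGFRA averaged 0.499 and 0.761 FPKM and CHI3L1 0.168 and 0.597. SOX2 and S100B were near absent in both groups. SOX2 had 8, 7 and 10 counts in shControl and S100B 3, 0 and 0, and both had 0 counts in every shSLC1A5 library. All 10 markers on that glioma line list summed to between 5194 and 5239 CPM (counts scaled to library size) in shControl. In shSLC1A5 the sum was between 4649.6 and 4755 CPM. Nearly all of it came from VIM, CD44 and EGFR. Summed markers of neutrophils lay between 0.189 and 0.421 CPM in shControl and between 0.582 and 65.6 in shSLC1A5, with the highest value in replicate 1. Summed lymphocyte markers lay between 0.270 and 0.438 in shControl and between 9.36 and 16.5 in shSLC1A5. Most of the shSLC1A5 sum came from IGHM, IGKC and MS4A1. IGHM had 729, 378 and 688 counts in shSLC1A5 and 0 in shControl, while CD3D and CD3E had 0 in shSLC1A5. Red cell markers reached 0.0955 in shControl and 14.2 in shSLC1A5 replicate 1, against 0.104 and 0.295 in the other shSLC1A5 libraries. Macrophage markers, of which CD68 is also expressed by many other cells, lay between 43.6 and 49.1 in shControl and between 50.3 and 66.5 in shSLC1A5. Of the markers found in the table, 2 of 9 macrophage, 5 of 10 neutrophil, 5 of 10 lymphocyte and 4 of 7 red cell markers had 0 counts in shControl, and 1, 1, 2 and 0 in shSLC1A5. The part of such transcripts in the differences below was not tested. The values without shSLC1A5 replicate 1 are given where they change a call. That omission does not remove the lymphocyte transcripts, which were present in every shSLC1A5 library.

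The antioxidant genes did not move as one block. In shSLC1A5, NQO1, GSR, SRXN1 and GCLC rose and HMOX1, GCLM and TXNRD1 fell, while GSS did not pass the test and ME1 was barely transcribed in either group. HMOX1 had the largest difference, a fall of 37.2%, and GCLM fell by 16.1%. The rises were smaller, from 6.06% for GCLC to 14.4% for NQO1. The 8 genes other than ME1 averaged 1 FPKM or more (FPKM scales fragments by gene length and by library size) and were tested with edgeR over 11841 genes; 7 passed an adjusted p of 0.05, 4 higher and 3 lower. Of all tested genes 39.2% passed, 20.2% higher and 19.0% lower. The FPKM ranges of the groups did not overlap for 7 of the 8, and for 49.6% of all tested genes.

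**Figure D1:**
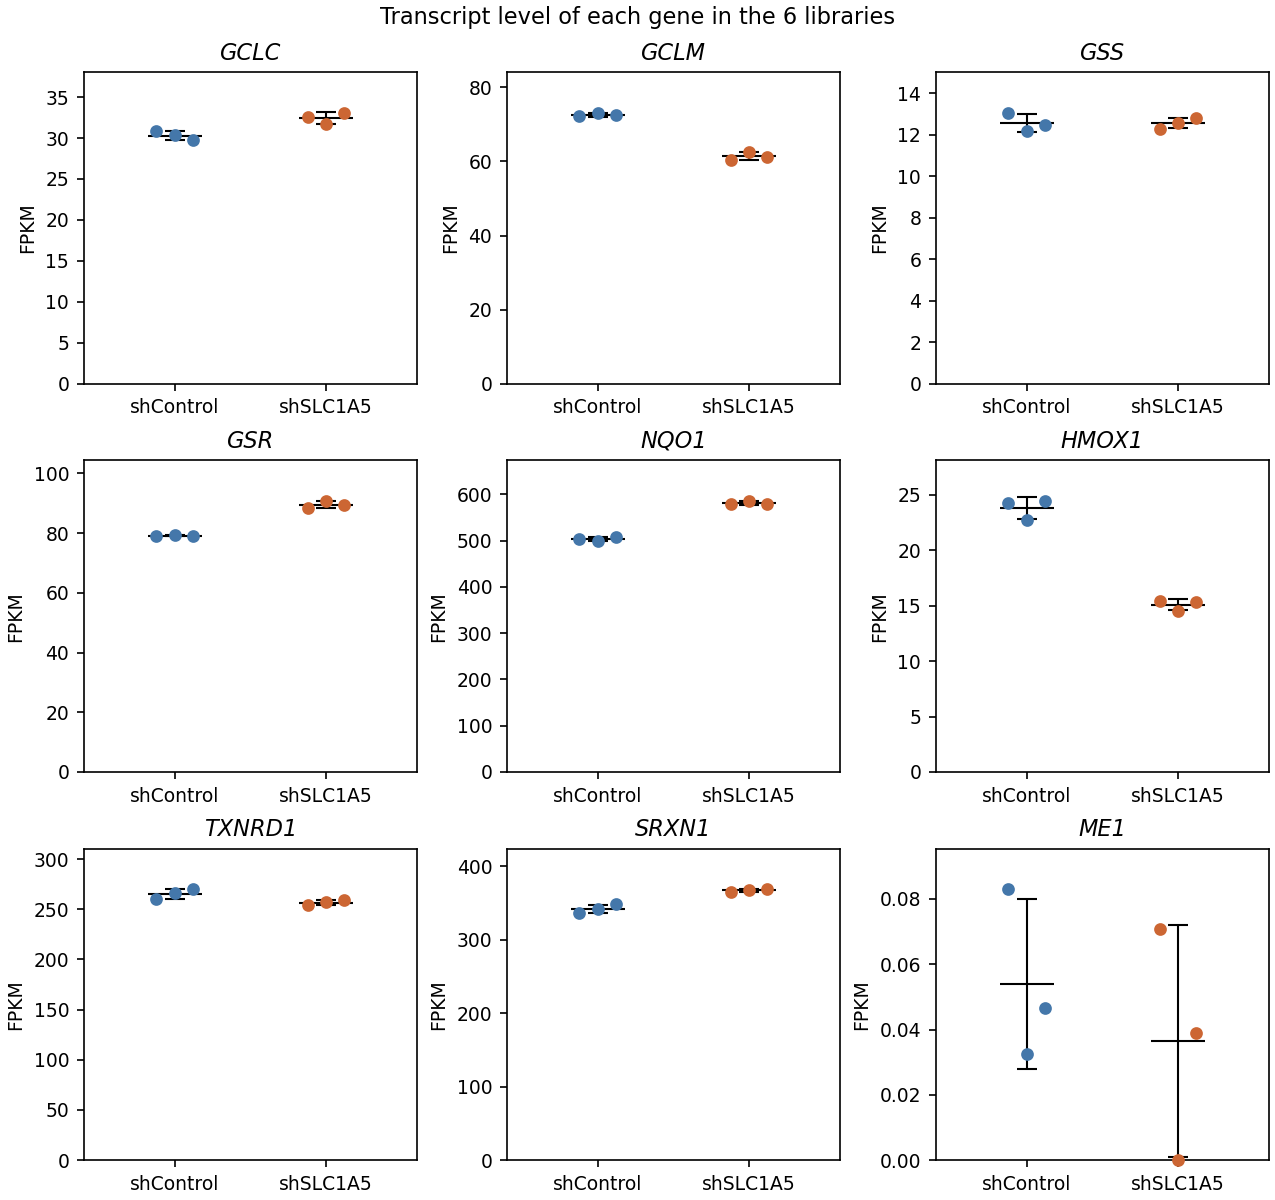
FPKM (vertical axes, each from 0) of the 9 genes in shControl (blue) and shSLC1A5 (orange); points are single libraries, the bar is the mean and the whiskers the SD over 3 libraries. The groups are apart for 7 genes, overlap for GSS, and lie under 0.1 FPKM for ME1.

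The catalytic subunit of the ligase was slightly higher. GCLC (ENSG00000001084, chromosome 6, 53497341 to 53616970, minus strand) was at 30.8, 30.3 and 29.8 FPKM in shControl and 32.6, 31.7 and 33.1 FPKM in shSLC1A5. The lowest shSLC1A5 library lay just above the highest shControl library. Its log2 fold change was 0.08 (SE 0.025, edgeR adjusted p = 0.0187), or 0.15 with GC-length offsets. It lost its call when shControl replicate 3 (adjusted p = 0.0578), shSLC1A5 replicate 1 (0.0808) or replicate 3 (0.0751) was omitted, and with no filter on low genes (0.129). A lincRNA, AL033397.1, lies on the same strand within the gene's span with 451 to 610 counts per library, and the rule for reads shared by overlapping genes is not given in the sources used here.

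The modifier subunit, which raises the ligase's affinity for glutamate and eases its inhibition by glutathione, went the other way. GCLM (ENSG00000023909, chromosome 1, 93885199 to 93909456, minus strand) was at 72.2, 73.1 and 72.5 FPKM in shControl and 60.5, 62.5 and 61.2 FPKM in shSLC1A5. All shSLC1A5 libraries were well below all shControl libraries, a gap many times the spread within either group. This gave a log2 fold change of -0.25 (SE 0.018, edgeR adjusted p = 1.90e-06), a fall of 16.1% with a 95% confidence interval of 13.8% to 18.4%.

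The ratio of the ligase transcripts did not overlap between the groups. GCLC FPKM divided by GCLM FPKM was 0.427, 0.415 and 0.411 in shControl and 0.538, 0.506 and 0.540 in shSLC1A5. It averaged 0.418 ± 0.00821 and 0.528 ± 0.0190 (SD, n = 3), or 26.5% higher in shSLC1A5. An exact two-sided permutation test gave p = 0.1, the smallest that 3 libraries against 3 allow. The level of the ratio depends on the gene lengths behind the FPKM: the values imply a gene model of 9668 bases for GCLC and 6086 for GCLM, whereas the longest GENCODE 29 transcripts have 3813 and 4857. The relative difference between groups does not, and the ratio of counts gave 26.5% as well.

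**Figure D2:**
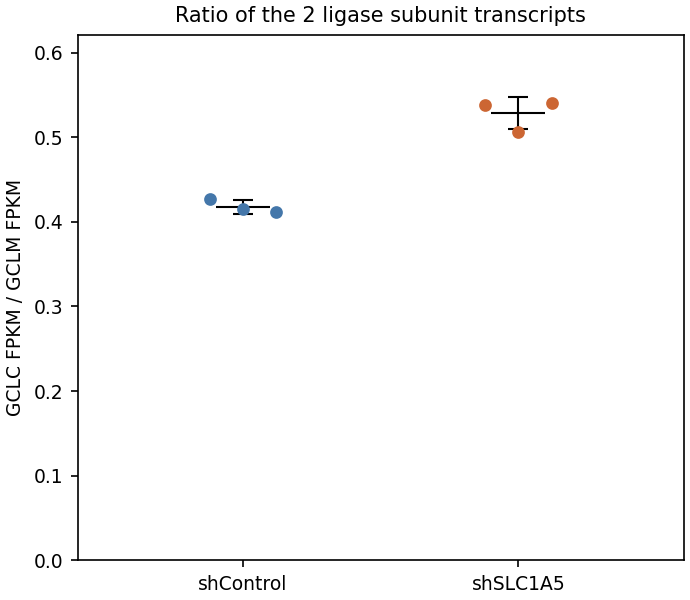
Ratio of GCLC to GCLM FPKM (vertical axis, from 0) in each library of shControl (blue) and shSLC1A5 (orange), with the mean (bar) and SD (whiskers) over 3 libraries. The shControl values lie from 0.411 to 0.427 and the shSLC1A5 values from 0.506 to 0.540.

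GSS, which completes glutathione by adding glycine, showed no detectable difference. GSS (ENSG00000100983, chromosome 20, 34928432 to 34956027, minus strand) was at 13.1, 12.2 and 12.5 FPKM in shControl and 12.3, 12.6 and 12.8 FPKM in shSLC1A5. The shSLC1A5 values lay within the shControl range. The log2 fold change was -0.02 with a 95% confidence interval of -0.10 to 0.07 (edgeR adjusted p = 0.785), and changed sign when shControl replicate 1 was left out (0.02).

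GSR, glutathione reductase, which uses NADPH to return oxidized glutathione to its reduced form, was higher. GSR (ENSG00000104687, chromosome 8, 30678066 to 30727846, minus strand) was at 79.1, 79.3 and 78.9 FPKM in shControl and 88.4, 90.8 and 89.5 FPKM in shSLC1A5. The shControl libraries were nearly equal and every shSLC1A5 library lay above them. The difference was 0.17 on the log2 scale (SE 0.018, edgeR adjusted p = 4.71e-05), a rise of 12.2% (95% confidence interval 9.11% to 15.4%).

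NQO1, a quinone reductase often used as a readout of NRF2 activity, was the most abundant of the 9 transcripts per length, rank 35 of all listed genes by mean FPKM. NQO1 (ENSG00000181019, chromosome 16, 69706996 to 69726668, minus strand) was at 504, 499 and 508 FPKM in shControl and 579, 586 and 579.7 FPKM in shSLC1A5. The groups were far apart compared with their spread, a coefficient of variation of 0.857% and 0.649%. The log2 fold change was 0.19 (SE 0.014, edgeR adjusted p = 2.46e-06), a rise of 14.4% (95% confidence interval 11.9% to 16.9%).

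HMOX1, heme oxygenase, which opens heme to biliverdin, iron and carbon monoxide, had the largest difference of the tested genes among the 9. HMOX1 (ENSG00000100292, chromosome 22, 35380361 to 35390293, plus strand) was at 24.3, 22.7 and 24.4 FPKM in shControl and 15.5, 14.5 and 15.3 FPKM in shSLC1A5. All shSLC1A5 libraries were far below all shControl libraries. On the log2 scale the difference was -0.67 (SE 0.047, edgeR adjusted p = 1.75e-06), a fall of 37.2% with a 95% confidence interval of 32.5% to 41.5%. Of all tested genes, 2.61% had an absolute log2 fold change at least as large, against 23.2% for GCLM and 33.6% for NQO1. Without shSLC1A5 replicate 1 the log2 fold change of HMOX1 was -0.69.

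TXNRD1 and SRXN1, of the thioredoxin branch, moved little. TXNRD1, the selenoprotein that reduces thioredoxin with NADPH (ENSG00000198431, chromosome 12, 104215779 to 104350307, plus strand), was at 260.1, 266 and 269.9 FPKM in shControl and 254, 257 and 259 FPKM in shSLC1A5. The groups did not overlap but lay close together. The log2 fold change was -0.06 (SE 0.015, edgeR adjusted p = 0.00796). The call was lost with limma on log2(FPKM + 1) (adjusted p = 0.0938) and with GC-length offsets (log2 fold change -0.01, adjusted p = 0.707). Quantile normalization gave 0.01 (adjusted p = 0.471). Within the TXNRD1 span on the same strand, the pseudogene RPL18AP3 had 1803, 1774 and 1728 counts in shControl and 2518, 2262 and 2211 in shSLC1A5. EID3 had 269 to 394 counts there, against 120408 to 136278 for TXNRD1. The rule for shared reads is not known here either. SRXN1, sulfiredoxin, which repairs overoxidized peroxiredoxins (ENSG00000271303, chromosome 20, 646615 to 653200, minus strand), was at 337, 342 and 348 FPKM in shControl and 366, 368 and 369 FPKM in shSLC1A5. Every shSLC1A5 library was higher than every shControl library. The log2 fold change was 0.09 (SE 0.016, edgeR adjusted p = 0.00117), a rise of 6.47% (95% confidence interval 3.91% to 9.08%), or 0.05 with GC-length offsets.

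ME1, the cytosolic malic enzyme that makes NADPH from malate, was close to absent. ME1 (ENSG00000065833, chromosome 6, 83210402 to 83431051, minus strand) had 20, 8 and 11 counts in shControl and 19, 0 and 10 in shSLC1A5. These are 0.0830, 0.0324 and 0.0467 FPKM and 0.0708, 0 and 0.0389 FPKM, with ranges that overlap (exact two-sided permutation p = 0.5). A count of 0 allows up to 3 counts in that library, for counting error only, so a difference was not detectable at this depth. ME1 was below the minimum of 1 FPKM and was not tested, and no fold change is given. Its mitochondrial relative ME2 was at 3.30 ± 0.0855 and 3.17 ± 0.130 FPKM (SD, n = 3), and ME3 was below the minimum too.

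**Figure D3:**
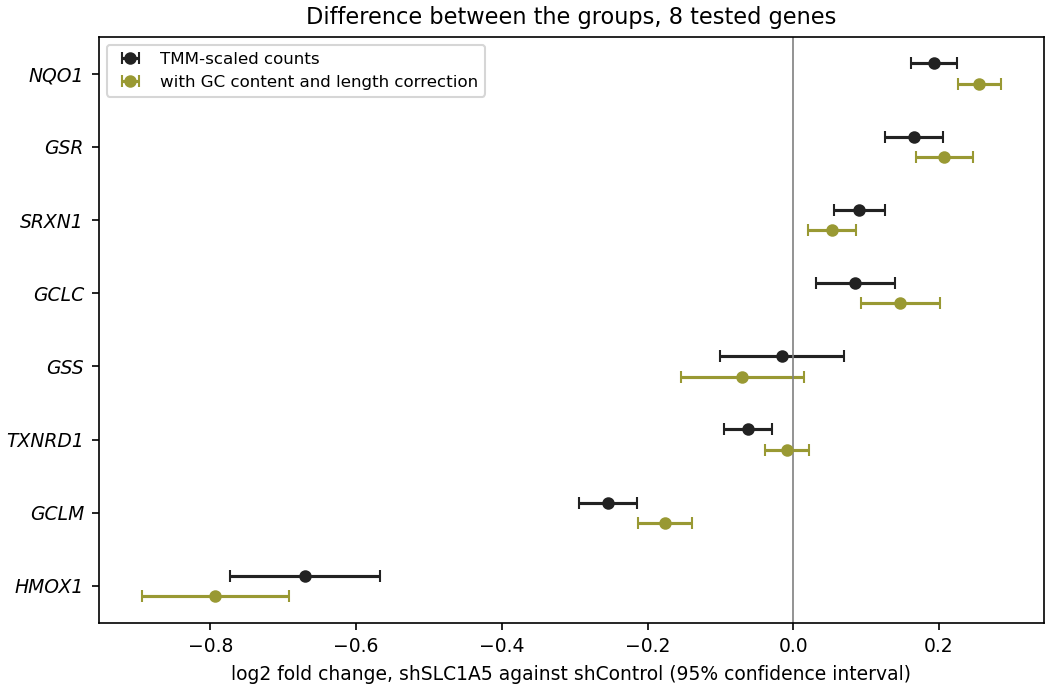
Log2 fold change of shSLC1A5 against shControl (horizontal axis) for the 8 tested genes, with 95% confidence intervals, from TMM-scaled counts (black) and with GC-length offsets (olive). NQO1, GSR, SRXN1 and GCLC lie above 0 and GCLM and HMOX1 below 0 in both; the corrected interval of TXNRD1 spans 0.

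By level, the genes fell into widely spaced steps. NQO1, SRXN1 and TXNRD1 led with 504, 342 and 265 FPKM in shControl (ranks 35, 53 and 95 of all listed genes by mean FPKM). GSR and GCLM followed at 79.1 and 72.6 FPKM, then GCLC at 30.3, HMOX1 at 23.8 and GSS at 12.6 FPKM. The order was the same in shSLC1A5, with neighbours apart beyond their spread in both groups. The 9 genes together took 0.584% to 0.590% of counts in shControl and 0.609% to 0.610% in shSLC1A5.

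GC-rich transcripts tended to have higher fold changes (Spearman correlation 0.49 over 11800 tested genes, which are not independent replicates). Among the 9 genes the GC content of the longest transcript ran from 37.3% for GCLM to 58.1% for HMOX1. HMOX1, the gene with the highest GC content of the 9, fell, and its log2 fold change was -0.79 with the offsets. With the offsets 6 of the 8 genes were called, 4 higher and 2 lower, against 25.9% of all tested genes (11.1% higher and 14.8% lower).

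The regulators of the pathway were mostly near their control level or lower. Of 13 regulators, all tested, 3 rose and 6 fell, with a median log2 fold change of -0.06 against -0.01 over all tested genes. The share called was 69.2%, beside 39.2% of all tested genes. With GC-length offsets 5 were called, each of them lower, beside 25.9% of all tested genes. NFE2L2, which encodes NRF2, was at 57.4, 57.5 and 57.0 FPKM in shControl and 55.5, 55.6 and 55.3 FPKM in shSLC1A5. These ranges were separate but close, with a log2 fold change of -0.06 (edgeR adjusted p = 0.0232). That call did not hold without shControl replicate 1 (adjusted p = 0.0666) or shSLC1A5 replicate 1 (0.0627), 2 (0.0701) or 3 (0.0823), and the value was 0.0047 with the offsets (0.881). The call was also lost with quantile normalization (0.233), no filter (0.0809) and a mean FPKM of at least 5 (0.0683). Limma on log2(FPKM + 1) (0.0797) or log2(FPKM + 0.1) (0.0818) did not keep it either. Of the 16 alternatives, 5 kept the call.

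KEAP1, the adaptor that holds NRF2 for degradation, was at 23.6, 24.5 and 24.4 FPKM in shControl and 24.3, 24.2 and 25.3 FPKM in shSLC1A5, with overlapping ranges. Its log2 fold change was 0.01 (edgeR adjusted p = 0.824), but -0.18 with the offsets (adjusted p = 0.00330). BACH1, a repressor of HMOX1, was at 12.8, 13.7 and 12.8 FPKM in shControl and 12.2, 11.9 and 11.7 FPKM in shSLC1A5. The shSLC1A5 libraries were all lower, with a log2 fold change of -0.15 (edgeR adjusted p = 0.00780), and the call was lost with the offsets (adjusted p = 0.110). Of the small MAF partners, MAFF fell from 7.71 ± 0.0254 to 5.72 ± 0.0957 FPKM (SD, n = 3), a log2 fold change of -0.44, or -0.68 corrected. MAFG rose by 0.22; with the offsets it was at 0.07 and lost its call (adjusted p = 0.182). MAFK, named after its values were seen, rose by 0.11 (edgeR adjusted p = 0.0450) but was called lower with the offsets (-0.16, adjusted p = 0.0117). Its rise did not pass without shControl replicate 1 (adjusted p = 0.10) or 2 (0.0668) or shSLC1A5 replicate 1 (0.0726) or 3 (0.103), nor with DESeq2 (0.0510), quantile normalization (0.0641) or no filter (0.0878). GSK3B and BTRC, which serve a KEAP1-independent route of NRF2 degradation, fell by 0.17 and 0.16; both calls were lost with the offsets (adjusted p = 0.0555 and 0.0587).

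Among other known NRF2 targets, 27 of 28 were tested, 12 rose and 7 fell, and the median log2 fold change was 0.12, a share of 70.4% called beside 39.2% of all tested genes. With the offsets 10 rose and 5 fell, beside 25.9% of all tested genes, and the median was 0.01. The 7 that fell were ABCC2, FTH1, MGST1, PGD, PIR, SLC7A11 and TXN, listed here after their values were seen. ALDH3A1, an aldehyde dehydrogenase, rose from 13.7 ± 0.331 to 21.3 ± 0.622 FPKM (SD, n = 3), a log2 fold change of 0.62 (SE 0.040, edgeR adjusted p = 1.08e-06). ABCC3, an exporter of glutathione and glucuronide conjugates, rose by 0.49, and EPHX1, an epoxide hydrolase, by 0.37. BLVRB, a biliverdin reductase, rose by 0.31, or 0.19 corrected. These rises stand beside the fall of HMOX1, which belongs to the same set of targets.

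Genes that supply glutathione's amino acids or break it down went both ways. Of 19 listed, 18 were matched and 15 tested, with 4 higher, 5 lower and a median log2 fold change of -0.06. The share called was 60.0%, beside 39.2% of all tested genes. The offsets gave 2 higher and 5 lower, beside 25.9% of all tested genes called. CTH, which makes cysteine from cystathionine, fell from 6.98 ± 0.764 to 3.99 ± 0.507 FPKM (SD, n = 3), a log2 fold change of -0.82 (SE 0.112, edgeR adjusted p = 2.19e-04). GGT5, which cleaves glutathione conjugates outside the cell, rose by 0.51, and its relative GGT7 by 0.27; with the offsets GGT7 was at 0.07 and its call was lost (adjusted p = 0.434).

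SLC7A11, which imports cystine in exchange for glutamate, was at 77.6, 80.4 and 74.6 FPKM in shControl and 71.8, 75.2 and 73.5 FPKM in shSLC1A5. The ranges overlapped, with a log2 fold change of -0.09 (edgeR adjusted p = 0.0179). It lost its call when shControl replicate 1 (adjusted p = 0.0557), shSLC1A5 replicate 1 (0.0568) or replicate 3 (0.0528) was omitted, and with GC-length offsets (0.449).

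**Figure D4:**
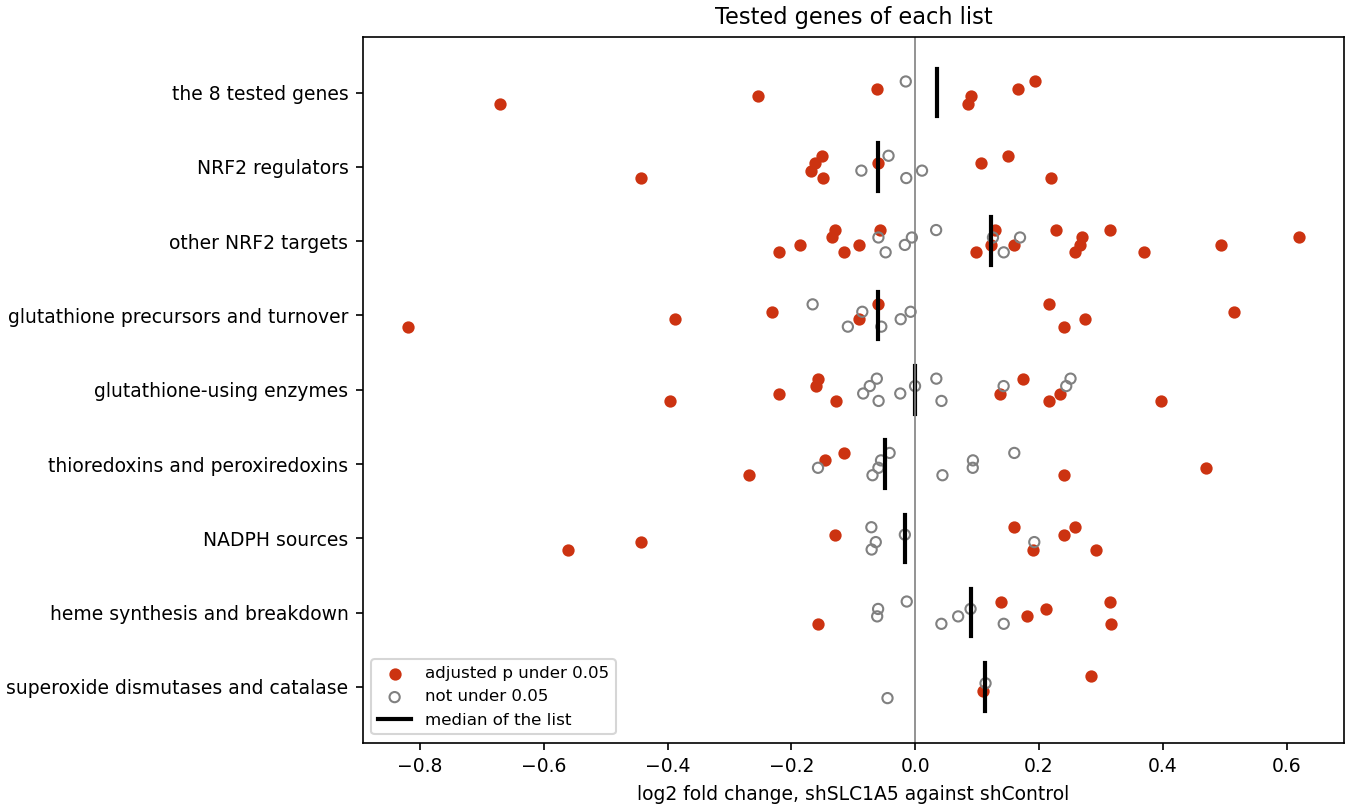
Log2 fold change of shSLC1A5 against shControl (horizontal axis) for each tested gene of the antioxidant set and of 8 related lists; filled red points have an edgeR adjusted p under 0.05 and black bars are list medians. Every list except the superoxide dismutases and catalase holds genes called in both directions, and medians lie between -0.06 and 0.12.

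Of the enzymes that use glutathione, 21 of 26 were tested, with 5 higher and 5 lower and a median log2 fold change of 0.00. The share called, 47.6%, and its split were near those of all tested genes (39.2%, 20.2% higher and 19.0% lower). The offsets gave 4 higher and 5 lower, beside 25.9% of all tested genes called. GSTM4, a glutathione transferase, rose by 0.40, although reads may be shared with its close GSTM relatives. GPX8, a peroxidase of the endoplasmic reticulum, fell from 29.1 ± 0.451 to 22.3 ± 0.266 FPKM (SD, n = 3), and MGST1, a membrane-bound transferase, fell by 0.22, or by 0.14 corrected. GPX4, which removes lipid peroxides, rose by 0.23; with the offsets it was at 0.01 and lost its call (adjusted p = 0.927). GPX1, the cytosolic peroxidase, named after its values were seen, rose by 0.14 (edgeR adjusted p = 0.0294) but was called lower with the offsets (-0.14, adjusted p = 0.0280). The rise of GPX1 passed the test in only 1 of the 6 fits that omit a library, that without shSLC1A5 replicate 3; the others gave adjusted p values between 0.0501 and 0.0989, and no filter on low genes gave 0.104.

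Of the thioredoxins and peroxiredoxins, 14 of 16 were tested, 2 rose and 3 fell (median log2 fold change -0.05), a share of 35.7% called, near the 39.2% of all tested genes. With the offsets 1 was higher and 5 were lower, beside 11.1% higher and 14.8% lower of all tested genes. TXNIP, an inhibitor of thioredoxin, rose by 0.47. PRDX2, a cytosolic peroxiredoxin, rose by 0.24 and PRDX6 fell by 0.15. TXN, the cytosolic thioredoxin that TXNRD1 reduces, was at 469 ± 16.7 and 437 ± 10.2 FPKM (SD, n = 3), a log2 fold change of -0.11. After the correction PRDX6 was at -0.08, still called, and the calls of TXN (-0.03, adjusted p = 0.445) and PRDX2 (0.15, adjusted p = 0.0573) were lost.

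NADPH-producing enzymes, which feed GSR, TXNRD1 and NQO1, were also mixed: 13 of 16 were tested, 5 rose and 3 fell, and the median log2 fold change was -0.02. The share called was 61.5%, beside 39.2% of all tested genes (20.2% higher and 19.0% lower). Under the GC-length offsets 3 were higher and 5 lower, beside 11.1% higher and 14.8% lower of all tested genes. IDH1, the cytosolic isocitrate dehydrogenase, fell from 33.4 ± 0.896 to 22.8 ± 1.19 FPKM (SD, n = 3), and MTHFD2, a mitochondrial folate enzyme, from 49.8 ± 0.995 to 37.0 ± 0.701. NADK, the kinase that makes NADP from NAD, rose by 0.29 and TKT, a transketolase of the pentose phosphate pathway, by 0.26, or 0.18 and 0.14 corrected.

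Of the genes of heme synthesis and breakdown other than HMOX1, 13 of 14 were tested, 5 rose and 1 fell, and the median log2 fold change was 0.09. With the offsets 2 were higher and 2 lower, beside 25.9% of all tested genes called. The share called without the offsets, 46.2%, was near the 39.2% of all tested genes. The gene that fell was UROD, a decarboxylase of heme synthesis, by 0.16; it too was named after its values were seen. The count of 6 called genes became 3 without shControl replicate 2 or shSLC1A5 replicate 3. BLVRB, given above, is on this list too. BLVRA, the other biliverdin reductase, was not called (log2 fold change 0.09, edgeR adjusted p = 0.196). UROS, ALAD and PPOX, enzymes of heme synthesis, rose by 0.18, 0.21 and 0.32. The PPOX call was lost when any 1 library was left out (adjusted p from 0.0526 to 0.173). ALAD lost its call without shControl replicate 2 (adjusted p = 0.0512) or 3 (0.0968) or shSLC1A5 replicate 1 (0.0820) or 3 (0.112), and both were lost with the offsets (adjusted p = 0.0745 for ALAD and 0.417 for PPOX).

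Of the superoxide dismutases and catalase, 4 of 5 were tested and 2 rose (50%, beside 39.2% of all tested genes); SOD1 and CCS did not pass (edgeR adjusted p = 0.378 and 0.251). CAT, catalase, rose from 6.43 ± 0.186 to 7.90 ± 0.445 FPKM (SD, n = 3). SOD2, the mitochondrial dismutase, rose from 33.0 ± 0.194 to 35.9 ± 0.200 FPKM, a log2 fold change of 0.11, or 0.17 corrected.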

How the data were processed

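RNA of 6 T98G libraries, 3 shControl and 3 shSLC1A5, was read in pairs of 150 bases, per the labels' protocols. The tools named, per the submitters' processing notes, are HISAT2, StringTie and fastp; versions, roles, genome build, annotation and strand setting are not stated there or in the labels. The authors deposited counts per gene, taken as raw, and FPKM, both per the file headers. Columns were matched to samples by number, with NC taken as the control. Positions are the table's own, and 99.88% of the 34674 IDs in GENCODE 29 overlapped the same gene on GRCh38.

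The 11841 genes averaging 1 FPKM or more were tested on counts with edgeR 4.0.16 in R 4.3.3 (TMM, quasi-likelihood F test, group alone, Benjamini-Hochberg over all tested genes, threshold 0.05). Standard errors are the fold change divided by the square root of F. The genes, lists, named-gene rule and alternatives were chosen with earlier results of these data known. That rule takes the 9 genes, SLC1A5, NFE2L2, KEAP1, BACH1, SLC7A11, and up to 4 called genes per list with the largest change and no overlap in FPKM. Not every gene it takes is reported here. As an alternative, GC-length offsets were made by loess (span 0.3) of each library's deviation from the gene mean on GC content and log length of a gene's longest GENCODE 29 transcript, available for 99.7% of tested genes; by construction these also remove any real difference that follows GC content or length. Other alternatives used DESeq2 1.42.0, limma 3.58.1 on FPKM or quantile-normalized values, other scaling and filters, blocking on the replicate number, and leaving out single libraries. No pair within a group looked like a library deposited more than once: chi-square per gene was 9.83 to 17.0 times the counting expectation. The fits were tested on simulated data.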

Additional observations from a re-analysis of the deposited data

How the results depend on the processing

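GCLM, GSR, NQO1, HMOX1, SRXN1 and SLC1A5 kept direction and call under all 16 alternatives, as log2 fold changes from -0.26 to -0.18, 0.16 to 0.21, 0.19 to 0.26, -0.79 to -0.62, 0.053 to 0.11 and -0.35 to -0.10. The GCLC call was lost with no filter on low genes (0.082) and without some single libraries (0.071 to 0.11 over the 6 omissions). TXNRD1 lost its call with limma on log2(FPKM + 1) or log2(FPKM + 0.1) (-0.049 for both) and changed sign with quantile normalization (0.012). GC-length offsets also ended its call, alone (-0.0080) or with the replicate block added to them (-0.0080). The replicate block without the offsets kept it (-0.062). GSS, not called, changed sign with a mean FPKM of at least 5 (0.0019) and without shControl replicate 1 (-0.039 to 0.017 over omissions). Among the regulators, NFE2L2 changed sign with GC-length offsets (0.0047, also with the replicate block), and KEAP1 with them (-0.18, also with the replicate block) and without shControl replicate 1 or shSLC1A5 replicate 3 (-9.53e-04 and -0.0064; -0.0064 to 0.027 over omissions). MAFK and GPX1 were called in the opposite direction with GC-length offsets (-0.16 and -0.14, and -0.16 and -0.14 with the replicate block added).

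With GC-length offsets 3071 of all genes passed in place of 4641, and 2928 with the replicate block added; the NRF2 regulators then counted 5 in place of 9 in both. Thioredoxins and peroxiredoxins counted 8 with DESeq2 in place of 5. Heme genes counted 3 with no filter and with the offsets and the replicate block, in place of 6, and 3 to 5 over omissions of a library. The promoter count fell from 3 windows to 1 with the longer motif. The cause of these changes was not tested.

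Same-numbered libraries of the 2 groups did not deviate together (correlations across genes -0.15, 0.036 and -0.034), and not every library correlated best with its own number. The replicate block gave 4470 genes and 7 of the tested antioxidant genes, with HMOX1 at -0.67; of the genes named it ended the calls of PPOX, ALAD and MAFK (adjusted p = 0.0539, 0.0510 and 0.0599). Depth limits ME1, whose 0 to 20 counts per library cannot show a difference.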

Other observations

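Genes around ME1 on chromosome 6, a comparison chosen after the values were seen, ranged from near absent to 32.5 FPKM in shControl. The highest of those examined was TPBG, further before ME1, at 32.5 ± 0.805 FPKM in shControl and 36.4 ± 0.625 in shSLC1A5 (SD, n = 3). In shControl, PGM3 and RWDD2A, which lie just before ME1 in coordinate order, were at 9.11 ± 0.289 and 1.71 ± 0.0719 FPKM (SD, n = 3), against 0.0541 ± 0.0260 FPKM for ME1. PRSS35, the next protein-coding gene after it, was at 0.115 ± 0.0417 FPKM, and CYB5R4, further on, at 3.70 ± 0.0636 FPKM. In shSLC1A5, PGM3, RWDD2A, PRSS35 and CYB5R4 were at 7.72 ± 0.235, 1.56 ± 0.166, 0.177 ± 0.117 and 3.22 ± 0.251 FPKM, and ME1 at 0.0366 ± 0.0355 FPKM. AL391416, which lies within the span of ME1, was at 0.00995 and 0.00827 FPKM in shControl and shSLC1A5.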
